A study of Mus musculus with 135 samples.

Results

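H3K4me3, trimethylation of lysine 4 of histone H3, was measured by chromatin immunoprecipitation and sequencing in male germ cells. The regions described here are distal peaks of the germ cell preparations that overlapped no peak of the other cell types compared. A peak was included when it had been matched between the reference genome and a second genome by the authors, overlapped no peak of embryonic stem cells, hepatocytes or cardiomyocytes by 1 base, and had no GENCODE M21 transcription start site within 1 kb. This rule gave 13991 of the 46512 matched germ cell peaks and of 67114 germ cell peaks in all. Another 2411 matched germ-only peaks were left out for a start site within 1 kb. At the boundary, the nearest member lay 1001 bases from a start site (Gm20219), with a mean over the 3 B6 libraries of 6.37 CPM, counts scaled to a fixed library total. The nearest peaks left out lay at 1000 bases (Gm14304) and 999 bases (Cnbd2), with B6 means of 6.74 and 4.34 CPM.

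The germ cells were crude preparations of the testes of mice aged 14 days, so other testis cells may be present. The groups were 3 libraries of C57BL/6J (B6), 3 of DBA/2J (D2), 4 of their (B6xD2)F1 hybrid and 69 libraries of 61 BXD strains, inbred lines that each carry a fixed mixture of both founder genomes. None of the mice was treated, and no allele was engineered. Whether libraries of a group are of different animals is not stated in the labels, so p-values measure only the spread between libraries, which may be technical. Founders and F1 were all made with antibody lot 2557645. In the panel 28 strains had only that lot, 32 only lot 2746331, and 1 strain had both. Deposited reads in peaks ranged per library from 6932375 to 16421047 in B6, 8727280 to 30334823 in D2, 12454594 to 31404259 in F1 and 1868469 to 18551562 in the panel. The median member held 50 to 83 reads in a B6 library, 53 to 182 in D2, 69 to 206 in F1 and 8 to 191 in a panel library of lot 2557645.

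PRDM9 is a zinc-finger protein of early meiotic prophase that binds DNA and trimethylates H3K4 on the nucleosomes beside its binding site. SPO11 then cuts the DNA at some of these sites, and the breaks are repaired as crossovers or non-crossovers, which makes PRDM9 sites the usual places of recombination in mice. Distal H3K4me3 seen in meiotic cells and not elsewhere can therefore be such a site, but also an enhancer or an unannotated promoter of any testis cell. Breaks were not measured here, and PRDM9 binding was not measured, so the peaks are called germ-only distal peaks throughout. The name refers only to the cell types compared, and no other testis cell was among them.

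Letters close to those reported for PRDM9 of B6 mice were found near the centre of these peaks. The motif GNTGCTNCT, searched on both strands of the reference genome, lay within 250 bases of the interval centre in 1242 of 7050 members on even-numbered chromosomes and X (17.6%), and in 8.94% of windows of the same length 1500 to 2000 bases away. Of distal peaks shared with another cell type 13.5% held it (9.54% in their flanks), of promoter peaks 15.5% (9.11%) and of all germ cell peaks 16.3% (9.09%). A longer form of it, with an A before these letters and NCC after them, was held by 94 of the 7050 members (1.33%, flanks 0.184%), by 0.352% of shared distal peaks and by 0.468% of promoter peaks. The 4 sequences below show the shorter motif in place, in the first members by level and by founder difference that held it. The 129 bases around it are printed from the GRCm38 (mm10) reference, 5′ to 3′ on the strand of the motif, with the motif in capitals. The first window lies in a peak over an exon of Dennd1a, chr2:38137637-38137765 on the minus strand. The next lies in a peak in an intron of Stag1, chr9:100817989-100818117 on the plus strand. The others lie in peaks between genes, nearest to Gm25133, chr14:96560504-96560632 on the plus strand, and Gm14293, chr2:179250660-179250788 on the minus strand. The motifs lie 18, 81, 195 and 68 bases from the centres of their peaks, in that order.
Dennd1a: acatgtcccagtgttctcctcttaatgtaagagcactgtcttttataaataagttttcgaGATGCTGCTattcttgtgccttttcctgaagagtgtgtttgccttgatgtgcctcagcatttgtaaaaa
Stag1: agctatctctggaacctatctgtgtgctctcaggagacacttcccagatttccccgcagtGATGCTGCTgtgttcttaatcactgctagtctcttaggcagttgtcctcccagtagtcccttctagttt
Gm25133: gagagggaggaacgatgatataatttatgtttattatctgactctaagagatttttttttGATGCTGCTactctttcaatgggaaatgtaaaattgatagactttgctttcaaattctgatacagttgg
Gm14293: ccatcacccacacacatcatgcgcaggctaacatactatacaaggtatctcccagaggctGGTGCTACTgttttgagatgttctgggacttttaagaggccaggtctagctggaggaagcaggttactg
None of the 8 members with the largest difference towards D2 held these letters within 250 bases of the centre, but the peaks at Stag1 and Rrbp1, both also higher in D2, did. A match describes the reference letters only. The D2 sequence was not analysed here, so no allele of a motif is compared.

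The matches crowded at the centre of the interval. Within 100 bases on either side there were 3.25 to 3.76 matches of GNTGCTNCT per 100 members in each 50-base bin, and in the outermost bins, centred 975 bases away, 1.01 and 0.894. The same central bins held 1.62 to 2.42 matches per 100 shared distal peaks and 1.96 to 2.32 per 100 promoter peaks. The 8-base word with the largest excess over the flanks in percentage points, ranked on odd-numbered chromosomes, was GCAGCAGC, whose complement reads GCTGCTGC and can overlap the motif. On the other chromosomes 7.56% of members held it (flanks 2.59%), against 7.82% of shared distal (3.12%) and 11.4% of promoter peaks (3.42%). The members also held words of general promoter factors, at shares near those of all germ cell peaks. GCATGCGC, bound by NRF1, was held by 3.35% (flanks 0.603%), ACTTCCGG of ETS factors by 2.44% (0.255%), AGATGGCG of YY1 by 2.68% (0.482%), CCAATCAG of NFY by 3.53% (1.67%) and the E-box CACGTGAC by 1.92% (0.504%), on either strand. Of all germ cell peaks on the same chromosomes 3.015%, 2.92%, 2.64%, 3.31% and 2.00% held them, in that order. Of all 13991 members 2456 (17.6%) held GNTGCTNCT, 196 the longer motif, 1855 (13.3%) at least 1 of the 5 promoter words, and 9913 neither kind. The motif letters and the words were chosen after shares had been seen, so the shares are descriptions.

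**Figure D1:**
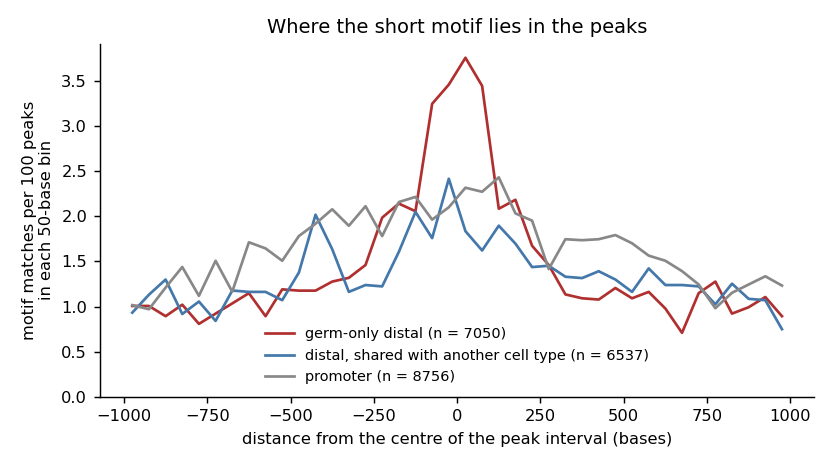
Matches of GNTGCTNCT per 100 peaks in 50-base bins (vertical axis) against distance from the centre of the peak interval in bases (horizontal axis), for germ-only distal peaks, distal peaks shared with another cell type and promoter peaks on even-numbered chromosomes and X. The line of the germ-only distal peaks rises to 3.76 at the centre and those of the other classes stay at or below 2.42 in the bins within 100 bases.

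The germ-only distal peaks were narrower and weaker than the other classes of matched peaks, and near the medians of all germ cell peaks. Their median width was 1615 bases (quartiles 1352 and 1953), against 1799 for shared distal and 2759 for promoter peaks. Their median mean level over the founder libraries was 6.89 CPM (quartiles 4.62 and 11.2, lowest 1.64, highest 90.7), and per kb of peak it was 4.30 CPM against 4.94 and 9.89. Over all germ cell peaks, matched or not, the medians were 1660 bases, 7.02 CPM and 4.19 CPM per kb. Of the members 7604 (54.4%) were intergenic, 4297 (30.7%) touched introns only and 2090 (14.9%) touched an exon. The median distance to a start site was 19.0 kb, and to the nearest other member 48.5 kb (quartiles 18.8 and 108.7 kb). Median GC content in the central 500 bases was 46.0%, against 50.6% and 58.0%, and the ratio of observed to expected CpG was 0.309 against 0.409 and 0.613. The repeat-masked share of those bases had a median of 13.0%, against 10% and 5.40%.

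They were spread over the autosomes and thin on the sex chromosomes. Density ran from 3.90 per Mb on chromosome 7 to 7.11 per Mb on chromosome 10, chromosome X had 327 members at 1.91 per Mb and Y had 0. Promoter peaks were also thinner on X, at 3.79 per Mb, and Y had 0 of them too. With each chromosome cut into 5 equal stretches from the centromere, 14.2%, 20.6%, 20.03%, 21.1% and 24.2% of members lay in them, and 15.6%, 18.5%, 19.3%, 20.7% and 25.9% of promoter peaks. In both classes the stretch farthest from the centromere held the most.

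The 6 highest members were ranked by founder mean. The highest, in an intron of Bcas3 (chr11:85444362-85449577), had 44.9, 21.7 and 25.4 CPM in B6, 159, 138 and 155 in D2, and 61.3, 74.2, 71.6 and 101.0 in F1. An intron of Stag1, a cohesin subunit gene (chr9:100815924-100820020), had 44.9, 31.1 and 35.5 CPM in B6, 127, 106 and 134 in D2, and 62.4, 73.3, 67.5 and 92.4 in F1. In both, every D2 library lay above every F1 library, and every F1 library above every B6 library. B6 was lower than D2 by edgeR's quasi-likelihood test, with a log2 difference of -2.40 (SE 0.22, adjusted p = 9.7e-08) at Bcas3 and -1.81 (SE 0.17, adjusted p = 1.2e-07) at Stag1. The other 4 did not pass the test. Of these, 3 lay over an exon of Dennd1a, whose protein activates a Rab GTPase (chr2:38135428-38139938), over an exon of Dock3, whose protein activates Rac (chr9:107050692-107053745) and 22.2 kb from Foxo6, a forkhead factor gene (chr4:120241441-120244884). Dennd1a had 127, 48.9 and 88.7 CPM in B6 libraries B62, B63 and B64 and 89.6, 75.7 and 103 in D2, so that the B6 libraries spanned the D2 range on both sides (edgeR adjusted p = 0.803). The peak over Dock3 (96.4, 41.5 and 71.2 CPM) had the same order of B6 libraries, and the one near Foxo6 had a narrower range (80.9, 72.2 and 74.6 CPM).

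That order was the order of the libraries in the class as a whole. Germ-only distal peaks took 16.1%, 8.98% and 11.3% of all reads in peaks in B62, B63 and B64, 11.4%, 9.46% and 11.8% in D2, and 10.7%, 10.6%, 10.3% and 12.3% in F1. B6 libraries thus spanned 8.98% to 16.1% and enclosed every D2 and F1 value. The mean was 12.1% ± 3.66 (SD, n = 3) in B6 and 10.9% ± 1.26 (SD, n = 3) in D2, a difference of 1.24 percentage points by a 2-sided exact permutation test (p = 0.9, smallest possible 0.1). Without B62 it was -0.766 points (exact permutation p = 0.4). F1, at 11% ± 0.893 (SD, n = 4), differed from the 6 founder libraries by -0.516 points (exact permutation p = 0.857), and without B62 by 0.410 (p = 0.587). A share of reads cannot tell fewer meiotic cells in a preparation from less mark per cell.

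Between the founders 2192 members were called by edgeR's quasi-likelihood test at an adjusted p under 0.05, 15.7% of the 13991, all of which were tested. Of all 67101 germ cell peaks tested 17.3% were called, but these include peaks not matched between the genomes, which members cannot be. In the other classes of matched peaks the shares were lower than in members. They were 11.8% of shared distal peaks (1609) and 5.39% of promoter peaks (1016). The backgrounds given here and below are shares of all germ cell peaks tested, matched or not. Higher in B6 were 1301 members (background 9.23%) and higher in D2 891 (background 8.1%). Over 2-fold were 1105 (background 12.6%), 642 with B6 above D2 (background 7.0%) and 463 below (background 5.6%). The balance of directions moved with single libraries, and turned to D2 without B62 or without D2 library 2: without B62 B6 was above D2 at 603 called members and below at 998, and without B63 at 3241 and 757. Without B64 they were 661 and 529, without D2 libraries 1, 2 and 3 882 and 588, 518 and 668, and 1339 and 736. Called the same way with every founder and F1 library left out in turn were 914 members (background 9.58%), 447 with B6 above D2 (background 4.39%) and 467 below (background 5.2%). The median log2 difference over all members was 0.04. By level, calls numbered 266 of 3498 members in the lowest of 4 level groups, then 649 of 3498, 704 of 3497 and 573 of 3498 in the highest. As shares these were 7.60%, 18.55%, 20.1% and 16.4%. In the same level ranges 8.69%, 14.8%, 13.7% and 10.2% of shared distal peaks were called. For promoter peaks the shares were 7.52%, 11.15%, 12.8% and 3.71%, so in the lowest group members did not stand above both classes.

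**Figure D2:**
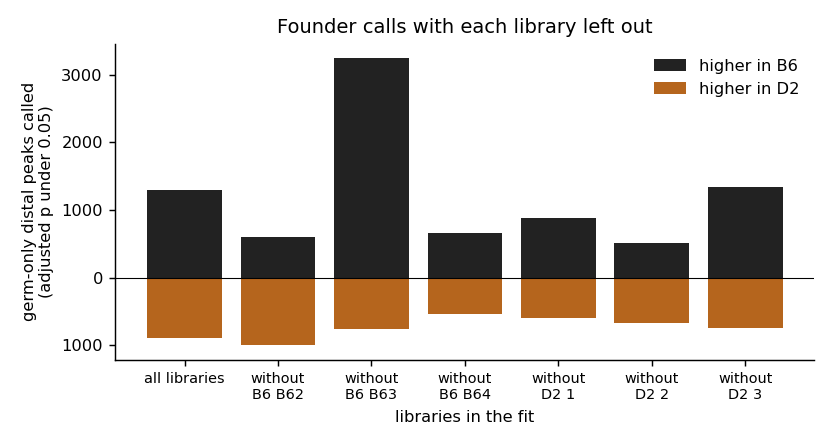
Number of germ-only distal peaks called higher in B6 (bars up) and higher in D2 (bars down) at an adjusted p under 0.05, with all libraries and with each of the 6 founder libraries left out (horizontal axis). Without B62 more were higher in D2 (998 against 603), and without B63 most were higher in B6 (3241 against 757).

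Members with different letters leaned in different directions. Of the 2456 with GNTGCTNCT 324 were called higher in B6 and 152 higher in D2 (median log2 0.21, all members 0.04), and of the 196 with the longer motif 37 and 5 (median log2 0.45). Of the 1855 with a promoter word 66 were higher in B6 and 196 higher in D2 (median log2 -0.19), and of the 9913 with neither 921 and 575. A lean to D2 was also seen outside the members. Of shared distal peaks 472 were called higher in B6 and 1137 higher in D2 (median log2 -0.14). Of promoter peaks 420 were higher in B6 and 596 higher in D2 (median log2 -0.07). On chromosome X 22 of 327 members were called (6.73%, autosomes 15.9%), 19 higher in B6 and 3 in D2. With every founder and F1 library left out in turn 9 and 3 were called. Without B62 the counts for GNTGCTNCT were 137 higher in B6 and 174 higher in D2 with a median log2 of 0.02, for the longer motif 12 and 7, for a promoter word 35 and 237, and for neither 435 and 625. Without B63 they were 798 and 122, 103 and 3, 124 and 167, and 2347 and 497. Without B62 members with GNTGCTNCT thus had more calls higher in D2, while those with the longer motif still had more higher in B6. Promoter-word members had more calls higher in D2 in both. Called with every founder and F1 library left out in turn were 113 and 72 with GNTGCTNCT and 26 and 110 with a promoter word.

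Of members at or above the median level, the largest founder differences were taken for 8 in each direction, and all 16 were called with every founder library left out. They were chosen on these same libraries, so the separation of the founders at them follows in part from the choice. Those higher in B6 lay mostly between genes. The largest was 113 kb from the RNA gene Gm48606 and 133 kb from Lpin1, a phosphatidate phosphatase gene (chr12:16399185-16402921), with 89.0, 40.5 and 71.9 CPM in B6, 5.29, 4.31 and 6.16 in D2 and 30.2, 42.0, 34.8 and 44.8 in F1 (log2 3.61, SE 0.25, edgeR adjusted p = 2.3e-09). A peak 1.99 kb from Tmem171 (chr13:98681491-98684243) had 51.9, 30.2 and 41.0 CPM in B6, 3.11, 3.09 and 4.28 in D2 and 19.4, 26.1, 17.2 and 23.0 in F1 (log2 3.51, SE 0.23, edgeR adjusted p = 1.0e-09). A peak 8.09 kb from Gm14293 and 190.0 kb from the cadherin gene Cdh4 (chr2:179249151-179252433), which held the motif printed above, had 64.7, 38.5 and 54.7 CPM in B6, 4.005, 3.42 and 6.42 in D2 and 24.8, 29.0, 27.1 and 33.5 in F1 (log2 3.504, SE 0.23, edgeR adjusted p = 1.2e-09). In all 3 the B6 libraries lay above the D2 libraries without overlap. The F1 libraries lay between them, apart from 2 at the Lpin1 peak, which were above B63. The peak between Gm25133 and Klhl1 (chr14:96558901-96561846), the other motif member printed, had 56.2, 22.4 and 37.4 CPM in B6, 3.43, 3.25 and 2.39 in D2 and 18.1, 18.1, 19.0 and 28.7 in F1 (log2 3.52, SE 0.28, edgeR adjusted p = 2.2e-08). The remaining 4 lay nearest to Gm24462 (log2 3.49), Gm36287 (3.48), AC160966.1 (3.35) and the glycosyltransferase gene Galnt14 (3.22).

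Those higher in D2 were mostly in introns. The largest difference of all lay in Clpb, a mitochondrial disaggregase gene (chr7:101746470-101751026), with 5.41, 6.48 and 4.54 CPM in B6, 128, 112 and 126 in D2 and 47.7, 63.5, 57.3 and 72.4 in F1 (log2 -4.52, SE 0.19, edgeR adjusted p = 1.4e-11). A peak touching an exon of Scyl3, a pseudokinase gene that overlaps BC055324 (chr1:163953522-163957132), had 4.17, 2.25 and 2.98 CPM in B6, 61.3, 53.3 and 76.0 in D2 and 27.5, 36.1, 27.1 and 38.7 in F1 (log2 -4.48, SE 0.24, edgeR adjusted p = 8.7e-11). An intron of Sox5, a transcription factor gene (chr6:144462016-144465320), had 4.33, 2.67 and 2.13 CPM in B6, 57.4, 47.3 and 67.8 in D2 and 24.0, 27.1, 18.6 and 26.9 in F1 (log2 -4.34, SE 0.24, edgeR adjusted p = 1.5e-10). The 3 groups did not overlap at any of these peaks, and F1 was between the founders at each. The remaining 5 were nearest to Gm19965 (log2 -4.36), Pik3c2g, a phosphoinositide kinase gene (-4.14), Spon1, a matrix protein gene (-3.91), Apba1, an adaptor gene (-3.63), and Rsf1, a chromatin remodelling gene that overlaps Rsf1os1 (-3.59).

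**Figure D3:**
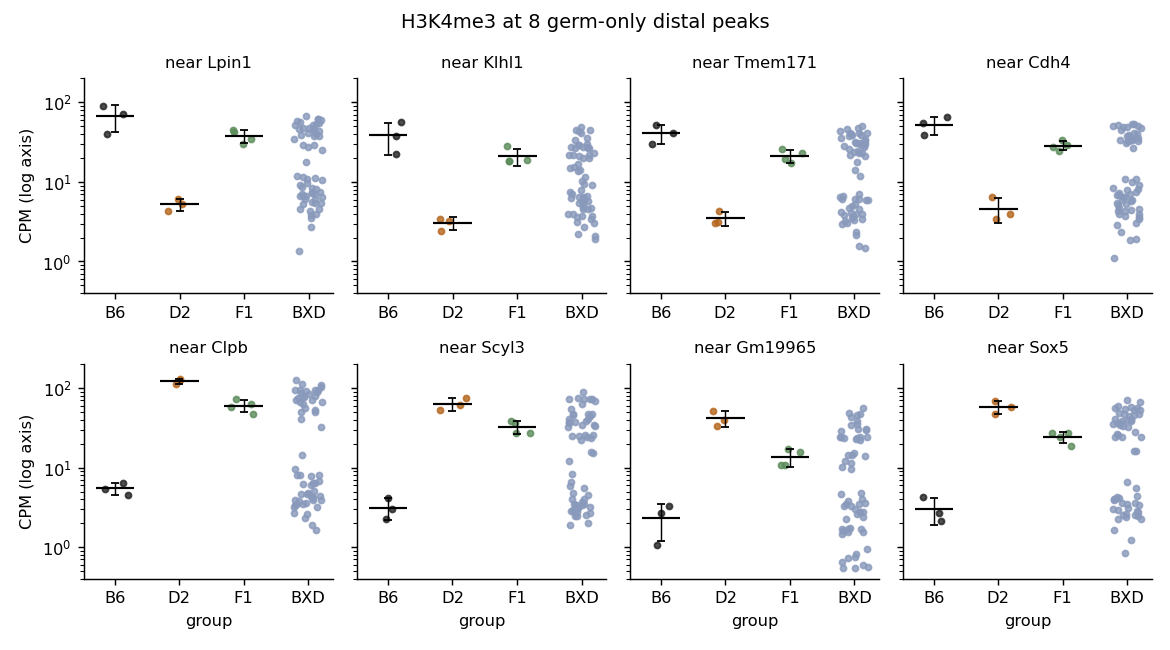
CPM on a log axis in B6, D2, F1 and the BXD strains at 8 germ-only distal peaks, the 4 with the largest difference in each direction, titled by the nearest protein-coding gene (Cdh4 is 190.0 kb away). Points are libraries in B6, D2 and F1 and strain means in BXD, and bars show the mean and SD of libraries. The F1 means lie between the founder means, and most plots show a high and a low cloud of BXD strains.

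In the panel the same peaks were spread over low and high strain means. At Clpb the 61 strain means ran from 1.63 to 125 CPM with a median of 8.00. Leaving out the 5 outermost steps at each end, the widest gap in their order on the log scale lay between 14.5 and 32.6 CPM, with 34 strains below it and 27 above. The gap of the Lpin1 peak lay between 11.8 and 17.6 CPM (33 strains below, 28 above), of the Gm14293 peak between 10.9 and 26.7 (36 and 25), of the Gm36287 peak (chr12:25239784-25242136) between 4.47 and 17.5 (31 and 30) and of the Sox5 peak between 6.65 and 16.3 (27 and 34). At Clpb the mean over panel libraries was 51.8 CPM with lot 2557645 and 25.4 with lot 2746331, and at Sox5 35.3 and 18.2, where founders and F1 are of the first lot only. At these 5 peaks 25 to 30 strains were thus on the smaller side. Of all 16 members with the largest founder differences, the Apba1 peak had the least even gap, with 39 strains below and 22 above. With the outermost steps left out, very uneven splits could not appear. The ratio of variance between strains to variance within strains was taken after subtraction of lot means on the log2 scale. Among members at or above the median level and outside chromosome 18, it was also highest at Clpb (135.7). Next came Pik3c2g (108), Rrbp1, an endoplasmic reticulum protein gene (chr2:143962055-143965348, 100.5), and Cd82, a tetraspanin gene (chr2:93447468-93449346, 88.6). Rrbp1 had 11.9, 9.08 and 10.6 CPM in B6, 37.8, 39.0 and 37.0 in D2, and 18.2, 29.9, 23.8 and 24.4 in F1. Cd82 had 2.32, 2.96 and 2.98 CPM in B6, 19.0, 16.6 and 25.3 in D2, and 10.8, 13.5, 8.96 and 11.1 in F1. Neither gene's groups overlapped.

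Over all members the median of this variance ratio was 1.23, against 1.05 for shared distal peaks, 0.843 for promoter peaks and 1.04 for all germ cell peaks. It rests on 7 strains with repeat libraries, 15 libraries with 8 degrees of freedom within strains. The median SD of strain means was 0.394 and that within strains 0.337 on the log2 scale. Most strains had a single library, so the variance of strain means also holds the variation between libraries. A ratio near 1 can therefore arise without any difference between strains. By level the ratio went from 0.945 in the lowest of the 4 level groups to 1.12, 1.21 and 1.73 in the highest, and for shared distal peaks in the same level ranges it was 0.999, 1.07, 1.05 and 1.06. The ratio was 1.93 for members called between the founders, 2.60 for those called with every founder and F1 library left out in turn and 1.13 for those not called. Members with GNTGCTNCT had 1.42, with the longer motif 1.72 and with a promoter word 1.03.

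Genotypes of the strains were not used, so nearby peaks stood in for the local founder haplotype. For each member the strain levels were correlated with the mean of at least 3 founder-called peaks of other classes within 2 Mb, each signed so that B6 is up. The r was then given the sign of the member's own founder difference. For 2182 called members the median r over 61 strains was 0.463 (quartiles 0.240 and 0.659), and 988 (45.3%) were over 0.5. For 11674 members not called it was 0.144, with 13.7% over 0.5. Members called with every founder and F1 library left out in turn had a median of 0.572. Within the strains of lots 2557645 and 2746331 the median of called members was 0.426 and 0.501. The 16 members with the largest founder differences had r from 0.551 (Pik3c2g) to 0.956 (Scyl3 and Gm25133). These r share libraries and depth between a peak and its neighbours, and carry no test.

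**Figure D4:**
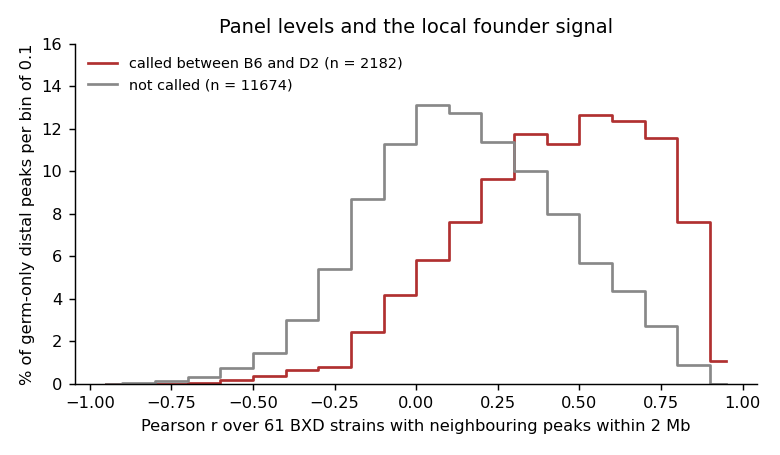
Percentage of germ-only distal peaks per bin of 0.1 (vertical axis) by Pearson r over 61 BXD strains with founder-called neighbours within 2 Mb (horizontal axis), for members called and not called between the founders. The median of the called members is 0.463 and that of the others 0.144.

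In the F1, which carries 1 copy of each founder autosome, members lay between the parents where these differed. Over the 1105 members called over 2-fold, the F1 position on the linear CPM scale, 0 being D2 and 1 being B6, had a median of 0.434 (quartiles 0.291 and 0.574), and 1075 (97.3%) were between the parents' means. Members higher in B6 had a median of 0.333 and those higher in D2 0.574, so both were nearer to the lower parent. With 0 as the lower and 1 as the higher parent, the median was 0.374 for all 1105 members, 0.429 for shared distal peaks over 2-fold and 0.420 for promoter peaks, so all 3 classes lay nearer to the lower parent. Since founder means enter both the choice of the members and the position, this is a description. The 19 called X members higher in B6 had a median position of 0.473 and the 1282 autosomal ones 0.317, and of those higher in D2 the 3 on X had 0.582 and the 888 autosomal ones 0.549. Of the 19 on X, 7 were called between F1 and D2 and 1 between F1 and B6. Against B6, F1 had 363 members called by edgeR (background 4.69%), 227 higher in F1 (background 2.79%) and 136 lower (background 1.89%), and against D2 416 (background 5.87%), 176 higher in F1 (background 2.65%) and 240 lower (background 3.22%). These counts moved by over 1.5 times with single libraries: against B6 to 1940 (218 higher, 1722 lower) without B63, 129 without B64, and 200 and 190 without F1 libraries 1 and 3, and against D2 to 254 and 259 without D2 libraries 1 and 2.

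When F1 was set against the parents' log2 mean, 64 members were called (background 1.59%), 37 higher in F1 (background 1.3%) and 27 lower (background 0.298%). A hybrid at the arithmetic mean of very unequal parents lies above their log2 mean. Of the 37, 34 were also called between the founders, 29 lay between the parents, and their F1 level over the arithmetic mean of the parents had a median of 1.08 (0.798 to 1.92). At or above the median level the largest were near Prr32 on X (chrX:45122668-45125974, log2 1.28, SE 0.24, edgeR adjusted p = 0.0053), at Scyl3 (1.25) and at Clpb (1.22). At Prr32 the level was 56.8, 17.4 and 27.8 CPM in B6, 5.15, 3.29 and 6.04 in D2 and 21.9, 28.9, 26.7 and 42.0 in F1, so F1 overlapped B6 and lay above D2. This call was lost without B64. At Clpb the F1 mean of 60.2 CPM was close to the arithmetic mean of 5.47 and 122. The 27 below the log2 mean were all below the means of both parents. Their medians were 3.69 CPM in B6, 6.26 in D2 and 2.00 in F1, and the median repeat-masked share was 54.4% against 13.0% for all members. Of the 27, 4 were at or above the median level, and the 2 outside chromosome 18 are given here. The first lay 272 kb from Gm41225 (chr14:89036086-89037622) with 10.04, 4.43 and 6.38 CPM in B6, 10.7, 7.52 and 11.1 in D2 and 3.42, 3.78, 2.83 and 4.97 in F1 (log2 -1.08, SE 0.22, edgeR adjusted p = 0.0093). The second lay in an intron of Csmd3 (chr15:48472342-48475039) with 7.88, 4.08 and 6.81 CPM in B6, 11.8, 13.9 and 14.8 in D2 and 6.00, 3.23, 3.62 and 4.20 in F1 (log2 -1.03, SE 0.20, edgeR adjusted p = 0.0071). At both, F1 lay below D2 without overlap and overlapped the range of B6. Called with every library left out were 29 members (background 1.0%), 16 above (0.881%) and 13 below (0.119%). The call at Gm41225 was lost without F1 library 1 or 3. Without B64 the count was 35 and without F1 library 3 it was 42.

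Members near genes after which mouse hotspots are named were looked up. The counts of members whose nearest gene was Psmb9, an immunoproteasome gene, or Hlx, a homeobox gene, were 0 and 0. Esrrg, an orphan nuclear receptor gene, was nearest to 5. Of the 4 highest near Esrrg, 1 was called, in an intron (chr1:187714425-187716051), with 3.71, 2.32 and 3.83 CPM in B6, 6.87, 4.76 and 6.42 in D2 and 4.91, 6.08, 5.78 and 5.85 in F1 (log2 -0.99, SE 0.25, edgeR adjusted p = 0.0097). The strongest of these 4 (chr1:188154371-188156100) had 17.3, 10.8 and 12.1 CPM in B6 and 12.1, 9.07 and 11.8 in D2. The founders did not overlap at the called peak, and overlapped at the strongest. The call was lost without B63 or D2 library 1.

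Promoters of the recombination machinery were looked at beside these peaks. Of 51 genes of meiotic recombination and its axis 47 had a promoter peak, and 0 were called by edgeR, with 10 at an unadjusted p under 0.05, all lower in B6, a median log2 of -0.23 and 2 called by DESeq2. Of all 18853 matched promoter peaks 5.39% were called by edgeR and 2396 had an unadjusted p under 0.05, with a median log2 of -0.07. Without B62 5 machinery promoters were called lower in B6, and without B63 also 5. Prdm9 itself had 111 ± 21.6 CPM in B6, 121 ± 3.03 in D2 (SD, n = 3 each) and 119 ± 6.35 in F1 (SD, n = 4), and was not called between the founders (edgeR adjusted p = 0.391). Spo11, the nuclease that makes the breaks, had 20.4 ± 2.15 and 27.2 ± 1.10 (edgeR adjusted p = 0.0749). For genes of the synaptonemal complex the values were 26.3 ± 2.42 and 33.3 ± 4.18 for Syce3 (0.0665), 85.5 ± 3.61 and 102.4 ± 3.62 for Sycp3 (0.0729), and 52.1 ± 2.41 and 63.9 ± 1.10 for Sycp1 (0.0848). Germ cell markers, of which Hormad1, Meiob, Sycp1 and Sycp3 are also in the list above, all had a promoter peak (8 of 8), with 0 called by edgeR, 3 at an unadjusted p under 0.05 and 1 called by DESeq2. All 7 Sertoli markers had one, with Cldn11 (64.2 ± 14.6 and 39.2 ± 5.55 CPM, edgeR adjusted p = 0.0152) and Amhr2 (24.8 ± 6.14 and 13.3 ± 2.57, 0.0397) higher in B6. Their summed level was 421 to 592 CPM in B6, 368 to 457 in D2 and 416 to 494 in F1, and their part in the founder calls was not tested. Of 5 Leydig markers 1 had a peak, Hsd3b1, lower in B6 (2.36 ± 0.399 and 8.07 ± 2.60, edgeR adjusted p = 9.6e-05), and of 5 macrophage and blood markers 0 had one. Of 4 round spermatid markers 2 had a peak. Prm1, a protamine gene whose peak was found on the reference genome only, was higher in B6 (4.36 ± 1.46 and 1.38 ± 0.471 CPM, edgeR adjusted p = 0.0052), and Tnp1 was not called (7.63 ± 1.58 and 7.85 ± 2.50 CPM, edgeR adjusted p = 0.921). Of the spermatogonial, myoid and endothelial markers with a promoter peak (5 of 6, 3 of 4 and 1 of 2) 0 were called by edgeR or DESeq2, and 0 had an unadjusted p under 0.05.

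In the panel the share of reads in germ-only distal peaks was higher in lot 2557645. Strain means were 13.2% ± 1.84 (SD, n = 28) against 11.4% ± 1.496 (SD, n = 32) with lot 2746331, a difference of 1.81 points (2-sided permutation p = 0.00018), and the share in members on X was 0.324% against 0.222% (p = 2.0e-05). By edgeR 8090 members (57.8%) were called between lots (background 56.4%), 1828 higher with lot 2746331 (background 26.7%) and 6262 higher with lot 2557645 (background 29.7%). The median log2 difference, lot 2746331 minus lot 2557645, was -0.11 for members, -0.40 with GNTGCTNCT, -0.56 with the longer motif and -0.69 on X. It was -0.03 with a promoter word, 0.09 for shared distal peaks and 0.00 for promoter peaks. Of 1697 calls among members with GNTGCTNCT 1445 were higher with lot 2557645. Lots hold different strains, so antibody, strain and preparation cannot be told apart.

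Within each lot, the share of reads in members fell as the share of reads in Sertoli marker promoters rose. Pearson's r was -0.842 over 32 strains of lot 2746331 (rho -0.853, both permutation p = 1.0e-05, the smallest possible, adjusted over 6 relations 6.0e-05) and -0.813 without the 2 strains farthest from the median. Over 28 strains of lot 2557645 it was -0.464 (permutation p = 0.0138, adjusted 0.0165, rho -0.383 with p = 0.0455, adjusted 0.0547) and -0.391 without the 2 farthest. Both shares are parts of the same read totals. The relation with the share of reads in recombination machinery promoters had opposite signs, r 0.649 with lot 2746331 (permutation p = 4.0e-05, adjusted 0.00012, rho 0.593 with p = 0.00047, 0.547 without the 2 farthest) and -0.493 with lot 2557645 (permutation p = 0.00725, adjusted 0.0118, rho -0.407 with p = 0.0316, -0.378 without the 2 farthest). With log10 reads in peaks r was 0.494 in lot 2557645 (permutation p = 0.00787, adjusted 0.0118, rho 0.438 with p = 0.0201, 0.570 without the 2 farthest) and -0.053 in lot 2746331 (permutation p = 0.781, rho 0.107 with p = 0.558, 0.288 without the 2 farthest). The 6 are all the relations computed.

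**Figure D5:**
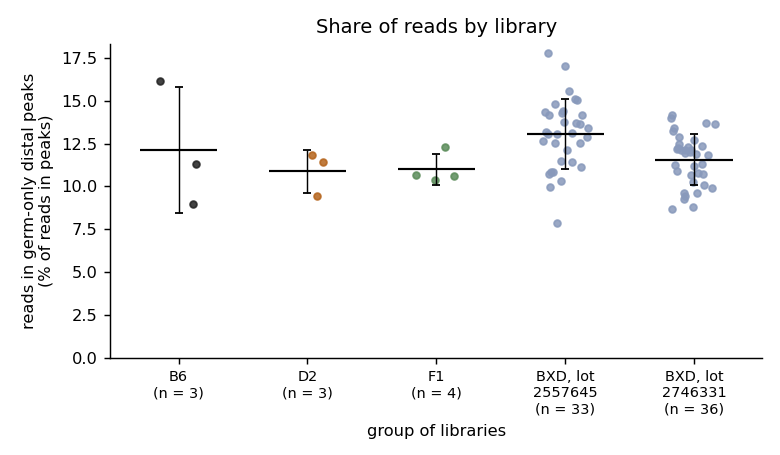
Percentage of reads in peaks that fell in germ-only distal peaks (vertical axis) by library, for B6, D2, F1 and BXD libraries of both antibody lots, with the mean and SD of libraries. B62 lies at 16.1% above every D2 and F1 library, and BXD libraries of lot 2557645 lie higher on average than those of lot 2746331.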

How the data were processed

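The authors deposited raw read counts per germ cell peak for 79 libraries and lists of peak coordinates (unit: other). The tools named, per the submitters' processing notes, are BWA 0.5.10, CASAVA 1.8 and MACS 1.4.2, on mm10. Their roles, the read filters and the build of the second genome are not given in the sources used here. The B6 columns B62, B63 and B64 carry numbers the labels do not use and were taken as unnumbered replicates. The table had 0 columns outside these libraries.

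Peaks were compared with GENCODE M21, and sequence was read from GRCm38 after a check of chromosome lengths. Counts were tested with edgeR 4.0.16 (filterByExpr, TMM, robust quasi-likelihood) in 1 fit of 10 founder and F1 libraries, with Benjamini-Hochberg adjustment over all peaks, after the scripts were tested on simulated data. CPM were scaled by TMM over 79 libraries. Lot calls came from the same test on counts summed by strain. DESeq2 1.42.0, other scalings, filters, member rules and left-out libraries were alternatives. Replicate numbers did not pair D2 with F1 (correlations of deviations 0.054, -0.100 and -0.148).

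Named members, none on chromosome 18, were chosen by rule. The first were the 6 highest by founder mean. Of called members at or above the median level, the 8 with the largest founder difference each way were taken, and the 3 farthest from the parents' mean each way. Of all members at or above the median level, the 4 with the largest variance ratio were added. Up to 4 were taken near each of several genes after which hotspots are named. Also named were 2 peaks each side of the 1 kb limit, of which those inside it are not members. Some members these rules chose are not reported here. Of the gene lists, the genes with the smallest p, Prdm9 and the called markers were named. The members, lists and letters were chosen with earlier results of these data known.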

Additional observations from a re-analysis of the deposited data

Results flagged for a closer look

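Of 39 sets of values over the F1 libraries, 2 had a library far from the others, where chance alone gives about 1 in 20. The sets were the share of reads in members and 38 named peaks, of which those inside the 1 kb limit are not members. At the peak nearest to Gm25133 the F1 libraries had 18.1, 18.1, 19.0 and 28.7 CPM, and the gap of the fourth was 0.912 of the whole range. At the intergenic peak near Esrrg (chr1:187562610-187563732) they had 2.05, 3.32, 3.31 and 3.501 CPM, and the gap of the first was 0.866 of the range.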

How the results depend on the processing

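Counts of called germ-only distal peaks depended on the scaling and the filter. With TMM factors from promoter peaks they were 1361 between B6 and D2, 155 for F1 against B6, 221 for F1 against D2 and 29 against the parents' mean. With 50 reads in every library of 1 group (10188 members tested) they were 1434, 208, 256 and 30. B6 and D2 alone gave 1364, and DESeq2 559 for F1 against B6. Leaving out 1 library gave 1186 to 3998, 129 to 1940, 254 to 330 and 35 to 85, and the share differences moved between -0.766 and 2.82 points for B6 minus D2 and between -1.02 and 0.41 for F1 minus founders. With B64 as the lone B6 library, assumed to vary like the others, a setting chosen after seeing the data, F1 against B6 gave 215. The machinery promoters went from 0 to 2 with DESeq2, 5 with B64 alone and 0 to 5 with a library left out. Within 100 bases the 8-base word was in 4.14% of members. The replicate block, possible for D2 and F1 numbers 1 to 3, gave 374 (133 higher, 241 lower) against 513 (195 and 318) for those samples without it. For 28 called named results 286 of 300 alternatives kept the call, 14 lost it and 0 changed sign. For 12 not called, 0 of 120 gave a call and 9 changed sign. Where counts moved, the cause was not tested. Panel libraries with a median of 8 reads per member limit single values.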
